A study of Mus musculus with 2 samples.

Results

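The miR-183, miR-96 and miR-182 cluster comprises 3 mouse microRNA (miRNA) precursors, mmu-miR-183, mmu-miR-96 and mmu-miR-182, each giving a 5p and a 3p mature strand, or arm. Probes were taken by name, and all 6 arms had a probe, out of 1900 mouse miRNA probes on the array. The samples were total RNA of colonic lamina propria mononuclear cells, the immune cell fraction isolated from the connective tissue under the gut epithelium. They came from male Balb/c mice kept specific pathogen-free (SPF), which carry a gut microbiota, and from male Balb/c mice kept germ-free, which carry none. The comparison asked how miRNA levels in these cells differ with the microbiota. Each group was represented by 1 array, and the number of animals behind each RNA sample is not stated in the labels, so no difference below has a replicate check or a p-value.

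The precursors are cut from a common transcript, and their 5p arms are the strands usually loaded into Argonaute to repress target mRNAs. The cluster is best known from sensory organs, where it is abundant in hair cells and photoreceptors, and changes in the seed of miR-96 cause hearing loss in humans and mice. In mouse helper T cells miR-182 is induced by interleukin-2 and represses the transcription factor Foxo1, and the cluster has been linked to Th17 cells, which populate the gut lamina propria. The same miRNAs are also expressed in epithelia.

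In RefSeq (GRCm38.p6) the precursors lie on the minus strand of chromosome 6, in the order Mir183 (chr6:30169668-30169737), Mir96 (chr6:30169446-30169551) and Mir182 (chr6:30165918-30165992) in the direction of transcription. Mir183 and Mir96 are separated by 116 bases, Mir96 and Mir182 by 3453 bases, and the whole cluster spans 3820 bases. All 3 lie inside the span of the non-coding RNA gene Mirc35hg (30158640 to 30174125), for which the gene table gives no strand. The nearest protein-coding genes are Nrf1, ending at 30153458, and Ube2h, starting at 30211289. The precursors are shown because the results turn on their opposite arms, which are in capitals, the 5p arm first.
Mir183: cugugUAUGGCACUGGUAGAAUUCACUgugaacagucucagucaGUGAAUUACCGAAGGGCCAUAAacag
Mir96: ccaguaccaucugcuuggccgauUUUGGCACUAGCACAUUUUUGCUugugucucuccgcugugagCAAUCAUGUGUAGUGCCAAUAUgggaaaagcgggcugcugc
Mir182: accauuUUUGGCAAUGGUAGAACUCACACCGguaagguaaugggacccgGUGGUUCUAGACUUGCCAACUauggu

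**Figure D1:**
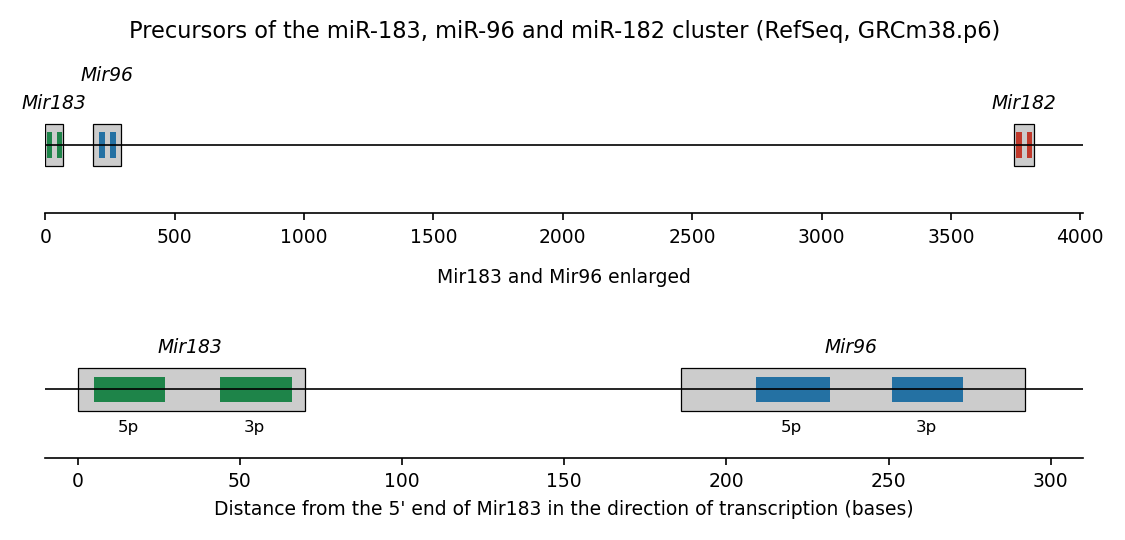
Map of the 3 precursors along the direction of transcription, as distance in bases from the 5' end of Mir183, with grey boxes for precursors and coloured boxes for the mature arms. Mir183 and Mir96 lie 116 bases apart and Mir182 lies 3453 bases beyond Mir96.

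The mature arms follow, with the seed (bases 2 to 8, counted from the 5' end) in capitals, to show how closely the 5p arms resemble each other and that the 3p arms share no seed with them. Sequences are RefSeq's and match the arms by name. Probe sequences were not used here.
miR-182-5p: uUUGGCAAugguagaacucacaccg
miR-96-5p: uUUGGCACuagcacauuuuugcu
miR-183-5p: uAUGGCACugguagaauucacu
miR-182-3p: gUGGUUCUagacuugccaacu
miR-96-3p: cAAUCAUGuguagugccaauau
miR-183-3p: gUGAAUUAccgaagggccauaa

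The 5p arms share bases 3 to 7, but their seeds are all different. Within the seed, miR-182-5p and miR-96-5p differ by A8C, and miR-183-5p and miR-96-5p differ by A2U. miR-182-5p and miR-183-5p differ by both U2A and A8C in the seed. Outside it they are close, with 13 identical bases of 15 and the differences C17U and A22U, which makes 18 of 22 over the whole arm compared without gaps. miR-96-5p matches miR-182-5p at 12 of 23 positions and miR-183-5p at 13 of 22. Of the 1679 mature names in the RefSeq table, only miR-1271-5p has the seed of miR-96-5p, and no probe carries that name. miR-3475-5p has the seed of miR-96-3p and was measured. No other name has the seed of any of the other 4 arms.

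The arms of the cluster were dim to moderate on these arrays, and with blank spots as background they did not all go one way. With the mean of blank spots subtracted, miR-182-5p was 2.48-fold higher on the SPF array, with a log2 SPF over germ-free of 1.31. Its log2 value was 0.65 if no background was removed, and -0.34 if the background measured around each spot was removed. With blank spots as background, miR-96-5p was 1.49-fold higher on the SPF array, with a log2 value of 0.58. miR-183-3p, the only bright arm of its precursor, was 1.34-fold lower, with a log2 value of -0.42. That value was -0.18 without scaling between the arrays and -0.08 with the background around each spot removed. The direction of miR-183-3p is uncertain under those settings. The remaining arms, miR-182-3p, miR-183-5p and miR-96-3p, were at or near the array background. In these bulk samples a different number of cells of one type and a different amount of RNA per cell cannot be told apart.

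These values start from the spot intensity at 635 nm, from which the mean of the spots named BLANK was subtracted to give a net intensity. That mean was 158.3 on the SPF array (SD 5.33, 895 spots) and 128.5 on the germ-free array (SD 4.53, 896 spots). The floor for calling a probe above background was 2 SD over the blank mean, a net intensity of 10.7 on the SPF array and 9.05 on the germ-free array. SPF net intensities were multiplied by 0.849 for the log2 values, which made the median of the 1471 miRNA probes above the floor on both arrays equal. This floor is low, since 71.8% of the spots printed without a probe passed it on the SPF array and 66.7% on the germ-free array. A stricter level comes from these 174 spots, whose mean + 2 SD was an intensity of 202.2 on the SPF array and 165.8 on the germ-free array. Probes differ in how well they bind, so intensities of different arms are signals and not amounts of RNA.

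miR-182-5p had an intensity of 408 on the SPF array and 214.1 on the germ-free array. Its net intensity was 249.6 on the SPF array and 85.6 on the germ-free array, or 46.9 blank-spot SDs on the SPF array and 18.9 on the germ-free array. It ranked 420 of 1900 by intensity on the SPF array and 732 on the germ-free array, so it lay above the median probe on both.

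miR-96-5p had an intensity of 262.1 on the SPF array and 187.6 on the germ-free array, with a net intensity of 103.8 on the SPF array and 59.0 on the germ-free array. It ranked 715 on the SPF array and 900 on the germ-free array, close to the middle of the probes. It was the dimmest of the cluster's arms that stood out from the no-probe spots on both arrays.

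miR-183-3p had nearly the same intensity on both arrays, 372.7 on the SPF array and 372.1 on the germ-free array, before the background and scale of each array were taken into account. Its net intensity was 214.4 on the SPF array and 243.6 on the germ-free array. It ranked 457 on the SPF array and 394 on the germ-free array, and was the brightest arm of the cluster on the germ-free array, by a log2 difference of 1.51 over miR-182-5p. On the SPF array miR-182-5p was the brighter of the pair, by a log2 difference of 0.22 with a technical SD of 0.17. On the germ-free array miR-182-5p exceeded miR-96-5p by 0.54 with a technical SD of 0.36, so both of these neighbours in the order of brightness lay within 2 SDs of each other.

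miR-183-5p, the usual guide strand of its precursor, had an intensity of 171.5 on the SPF array and 134.3 on the germ-free array. Its net intensity of 13.2 was just over the floor on the SPF array, and its 5.73 on the germ-free array was under it. Of the spots without a probe, 59.8% were brighter on the SPF array and 81.0% on the germ-free array. With the germ-free value set to the floor, the log2 value was 0.31 or more. The probe of miR-182-5p, which occupies the adjoining spot and whose target shares 18 of 22 bases, gave a net intensity of 249.6 on the SPF array and 85.6 on the germ-free array. Cross-hybridisation between them was not tested.

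miR-182-3p had an intensity of 167.4 on the SPF array and 150.8 on the germ-free array. Its net intensity was 9.11 on the SPF array, under the floor, and 22.3 on the germ-free array. With the SPF value set to the floor, the log2 value was -1.30 or lower. Of the spots without a probe, 79.3% were brighter on the SPF array and 19.5% on the germ-free array, and the arm lay under their mean + 2 SD on both arrays. miR-96-3p was under the floor on both arrays, with a net intensity of -0.18 on the SPF array and -4.04 on the germ-free array, and has no log2 value.

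**Figure D2:**
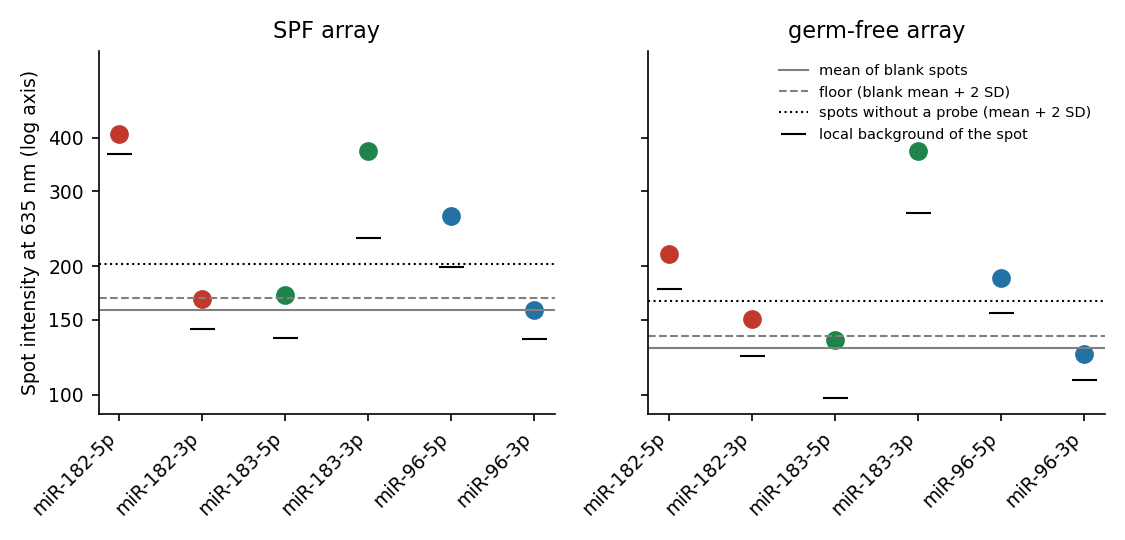
Spot intensity at 635 nm (log axis) of the 6 arms on the SPF and the germ-free array, with short bars for each spot's local background and lines for the blank mean, the floor and the level of spots without a probe. miR-182-5p, miR-96-5p and miR-183-3p lie above all lines on both arrays, while the other 3 arms lie under the dotted line of 202.2 on the SPF array and 165.8 on the germ-free array.

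Of the 6 arms, 3 passed the floor on both arrays, and 1 of these, miR-182-5p, was at least 2-fold higher. Over all probes that passed, 1.56% were at least 2-fold higher (23 of 1471) and 1.43% at least 2-fold lower (21 of 1471). Of the shared probes, 9 had a higher log2 value than miR-182-5p and 72 a higher one than miR-96-5p, while 214 had a lower one than miR-183-3p. The median of the 3 arms was 0.58, beside -0.06 over the 1471 probes. Among the 1579 probes above the floor on at least 1 array, with bounds counted, 1.77% were at least 2-fold lower, and miR-182-3p was 1 of these 28.

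The technical error of each log2 value was propagated from repeated control spots, whose SD was 0.092 on the log2 scale (4 bright control probes with 8 spots per array), and from the SD of the spots without a probe. It came to 1.31 ± 0.24 for miR-182-5p, 0.58 ± 0.35 for miR-96-5p and -0.42 ± 0.17 for miR-183-3p. miR-182-5p exceeded miR-183-3p by 1.73 ± 0.29 and miR-96-5p exceeded it by 0.999 ± 0.39. miR-182-5p exceeded miR-96-5p by 0.73 ± 0.43, within 2 of these SDs. The errors hold the spread of control spots and of spots without a probe within an array. They hold nothing of the spread between animals, RNA extractions or hybridisations. Nor do they hold the choice of background, which put miR-182-5p at 0.65 without subtraction and at -0.34 with local background. The observed values over all shared probes had an SD of 0.40.

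**Figure D3:**
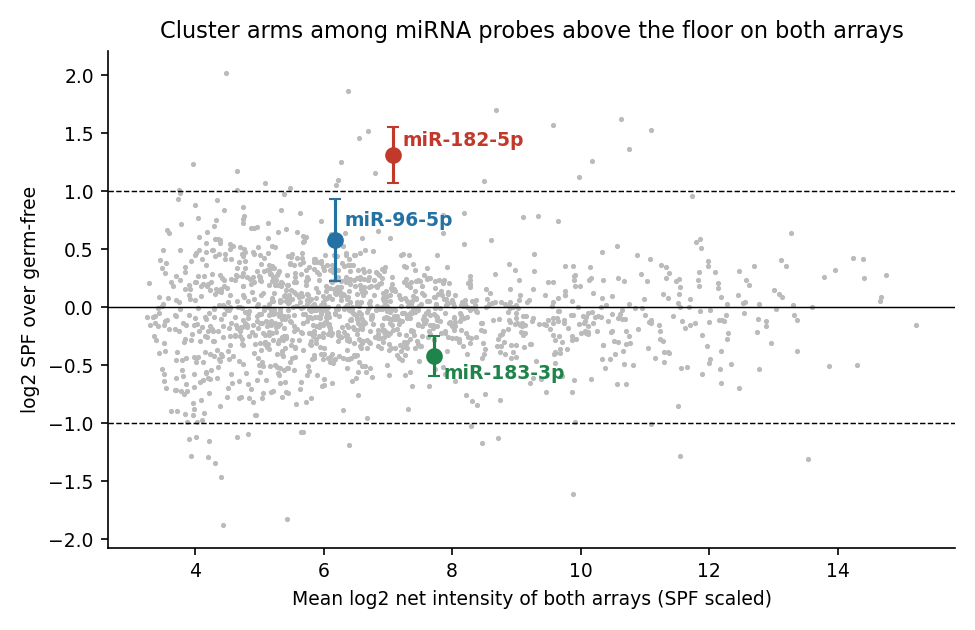
Log2 SPF over germ-free against the mean log2 net intensity of both arrays for the 1471 miRNA probes above the floor on both, with the cluster's arms in colour and bars of 1 propagated technical SD. miR-182-5p at 1.31 lies above the dashed line of 2-fold, while miR-96-5p at 0.58 and miR-183-3p at -0.42 lie inside the lines.

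The opposite arms of the precursors were unequal on both arrays. Since the weaker arm of each lay under the level of the spots with no probe, it was set to that level for the ratio, a net intensity of 43.9 on the SPF array and 37.2 on the germ-free array. miR-182-5p was then brighter than miR-182-3p by at least 5.69-fold on the SPF array and at least 2.30-fold on the germ-free array. miR-96-5p was brighter than miR-96-3p by at least 2.37-fold on the SPF array and at least 1.59-fold on the germ-free array. The miR-183 precursor had the opposite order, with the 3p arm brighter than the 5p arm by at least 4.89-fold on the SPF array and at least 6.55-fold on the germ-free array. Over the 465 precursors with both arms above the floor on both arrays, the 5p arm was the brighter for 68.2% on the SPF array and 69.5% on the germ-free array. The cluster's precursors are not among these 465, since each had an arm under the floor on at least 1 array.

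Measured against the blank-spot floor, the arms of miR-182 also differed in direction between the groups. The 5p arm was at 1.31 and the 3p arm at -1.30 or lower, a difference of at least 2.61 as bounded by that floor. Among the 521 precursors with both arms above the floor on at least 1 array, no other pair had a larger difference as computed with the floor in place of undetected values. Both the size and the direction rest on the weak 3p spot, which lay under the no-probe mean + 2 SD on both arrays. Its germ-free signal of 22.3 was lower than that of 19.5% of the spots without a probe. Against that stricter level the 3p arm has no log2 value, so the bound does not hold there. Without background subtraction the arms were at 0.65 and at -0.11 or lower, and with the pseudocount the 3p arm was at -0.79 or lower. With local background the 3p arm had no log2 value, since its SPF spot did not pass the blank-spot floor. Subtracting its local background left 24.6 on the SPF array and 27.3 on the germ-free array, before an SPF scale factor of 0.72. The 5p arm was at -0.34 there, so neither arm was higher on the SPF array and the opposite directions were not seen. With the no-probe spots as background the 3p arm had no value and the pair could not be compared. For miR-183 the 5p arm, at 0.31 or more, and the 3p arm, at -0.42, differed by at least 0.73, and 67 of the 521 pairs differed by more. Opposite signs as such were common, at 37.2% of the 465 precursors (173), and at 37.4% of the 521 with bounds. Across the 465 precursors the log2 values of the arms had a Pearson correlation of 0.34 and a Spearman correlation of 0.31. These points share both arrays and their labelling and are not independent replicates. The median absolute difference between arms was 0.25, and 4.95% of the 465 pairs (23) differed by 2-fold or more.

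**Figure D4:**
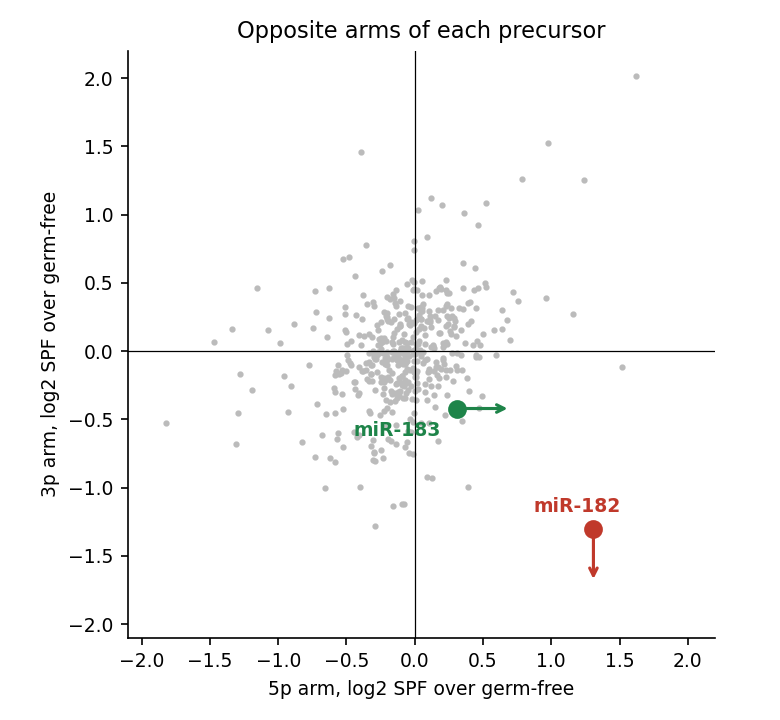
Log2 SPF over germ-free of the 3p arm against the 5p arm for the 465 precursors with both arms above the floor on both arrays (grey), with miR-182 and miR-183 added in colour. Arrows show the direction in which a bound lies, to lower 3p values for miR-182 (at 1.31 and -1.30 or lower) and to higher 5p values for miR-183 (at 0.31 or more and -0.42).

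The value of miR-182-5p depended on how background was removed. The local background around its spot was 366.8 on the SPF array and 176.6 on the germ-free array, or 89.9% of the spot's intensity on the SPF array and 82.5% on the germ-free array. Over the shared probes the median share was 69.2% on the SPF array and 72.8% on the germ-free array. Subtracting that local background left 41.2 on the SPF array and 37.5 on the germ-free array, for a log2 value of -0.34. Repeated control spots had a log2 SD of 1.34 under that subtraction. Without any background subtraction the log2 value was 0.65, or under 2-fold. miR-96-5p kept its direction under all 10 alternatives, between 0.21 and 0.82, and miR-183-3p was negative under all 10, between -0.53 and -0.08. The -0.08, with local background, was smaller than the technical SD of 0.17 of miR-183-3p.

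**Figure D5:**
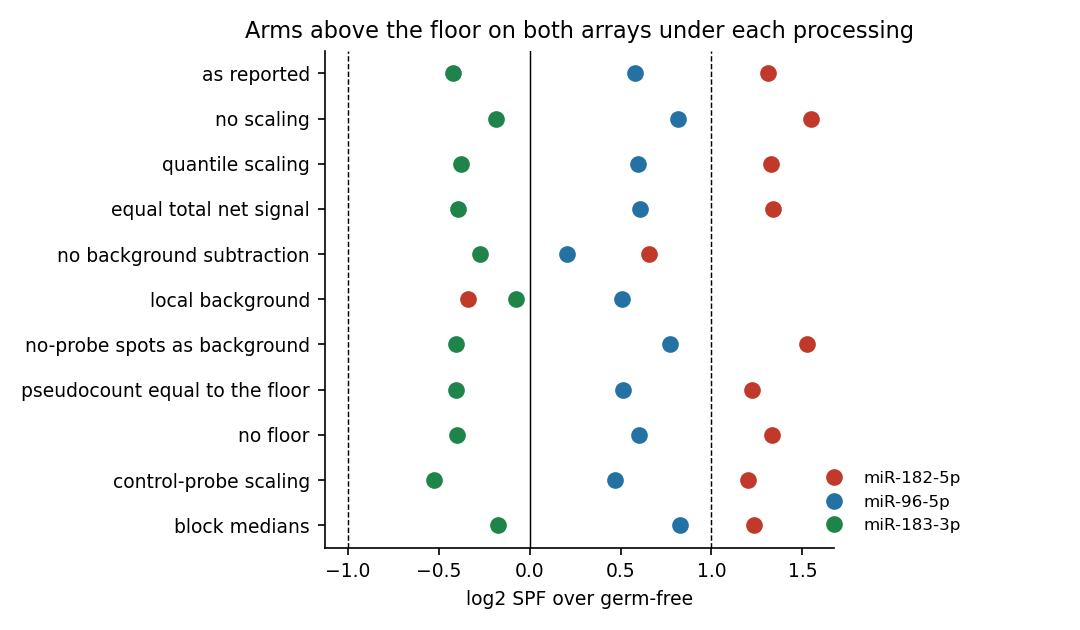
Log2 SPF over germ-free of miR-182-5p, miR-96-5p and miR-183-3p as reported and under 10 alternatives of scaling, background, floor, pseudocount and block correction, with dashed lines at 2-fold. miR-182-5p lies above 2-fold under 8 of the 10, at 0.65 without background subtraction and at -0.34 with local background.

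The positions of the spots were compared as well, since each arm has 1 spot. miR-182-5p and miR-183-5p are neighbours in block 8 of the array, where the median of the 47 shared probes was 0.08. Of the neighbours of miR-182-5p, the brightest was miR-142a-5p, a miRNA of blood cells, with an intensity of 4493 on the SPF array and 5927 on the germ-free array and a log2 value of -0.66. miR-96-5p and miR-183-3p touch at a corner in block 26, whose median over 48 shared probes was -0.25. Set against their block medians, the log2 values were 1.23 for miR-182-5p, 0.82 for miR-96-5p and -0.17 for miR-183-3p. miR-96-5p thus exceeded miR-183-3p within 1 block, and subtracting their shared median cannot change the difference between them. The -0.17 of miR-183-3p was about the size of its technical SD of 0.17, so its own direction is uncertain there. miR-183-3p was at -0.18 without scaling and at -0.08 with local background, so its direction is uncertain there too.

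Few probes had both a level and a difference close to that of miR-182-5p. By distance over the log2 net intensities of both arrays, the nearest was miR-215-5p, an enterocyte miRNA, at a distance of 0.40 and a log2 SPF over germ-free of 1.16. Its net intensity was 196.6 on the SPF array and 74.8 on the germ-free array. miR-1982-5p and miR-6381 followed, at log2 values of 0.60 and 0.65. For miR-96-5p the nearest were miR-540-3p, miR-7672-3p and miR-7235-3p, at distances of 0.073 to 0.094 and log2 values of 0.56, 0.63 and 0.45. For miR-183-3p they were miR-7681-3p, miR-350-3p and miR-5617-5p, at -0.45, -0.42 and -0.53. Likeness over 2 arrays is a weak measure.

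Among other probes, miR-3475-5p, with the seed of miR-96-3p, was at -0.41 with a net intensity of 93.3 on the SPF array and 105.3 on the germ-free array. miR-7022-5p, the only other of the 1618 probes matched to a sequence that has the bases 3 to 7 of the 5p arms, was at -0.05 with a net intensity of 274.2 on the SPF array and 240.7 on the germ-free array.

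Markers of other cell types moved between the same arrays. All 8 epithelial miRNAs of the list, the miR-200 family and miR-192, miR-194 and miR-215, were at least 2-fold higher on the SPF array, with log2 values of 1.09 to 1.62 and a median of 1.31, beside 1.31 for miR-182-5p, 0.58 for miR-96-5p and -0.42 for miR-183-3p. The number at least 2-fold higher was 7 with scaling on the control probes and 5 without background subtraction. Their summed net intensity, after scaling, was 14529 on the SPF array and 5458 on the germ-free array. All 4 lymphocyte miRNAs were lower on the SPF array, between -1.31 for miR-150-5p and -0.36 for miR-155-5p, with sums of 9100 on the SPF array and 21042 on the germ-free array. Without miR-150-5p the sums were 1547 on the SPF array and 2343 on the germ-free array. Of the 3 myeloid and pan-leukocyte miRNAs, miR-223-3p of neutrophils and monocytes was higher, at 0.74, while miR-142a-3p and miR-142a-5p, found across blood lineages, were at -1.01 and -0.66. These leukocyte miRNAs were above the floor on both arrays, and the epithelial ones were also well above the floor on both. With local background subtracted, 5 of the 8 epithelial miRNAs had a value, with a median of 0.78 and none at 2-fold. Of these, 4 were higher and 1 was lower on the SPF array, at -0.14. Of the 4 lymphocyte miRNAs only miR-342-3p had a value there, at 1.53. On at least 1 array the others were no brighter than their local background. Under that subtraction repeated control spots had a log2 SD of 1.34, beside 0.092 with blank spots, so these values are imprecise. The part of either cell type in the cluster's values was not tested.

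Among 12 miRNAs linked to T cell activation, a setting in which miR-182 is known to be induced, 8 were higher and 4 lower on the SPF array, with a median of 0.07. Leaving out the scaling gave 10 higher and 2 lower, and scaling on the control probes gave 5 higher and 7 lower, with a median of -0.04. The highest were miR-222-3p at 1.25, the only one at least 2-fold higher, and miR-21a-5p at 0.96. The lowest were miR-92a-3p at -0.74 and miR-19b-3p at -0.39, both of the proliferation-linked cluster of miR-17 to miR-92a. Of the 5 miRNAs listed for neurons and endocrine cells, 4 were above the floor on both arrays. Their log2 values ran from -0.43 for miR-128-3p to 0.37 for miR-7a-5p. The neuronal marker miR-9-5p was under the floor on both arrays, and miR-124-3p had a net intensity of 11.2 on the SPF array and 11.6 on the germ-free array.

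The muscle list had 4 of 5 members detected on both arrays, with log2 values of -0.14 to 0.45, and miR-1a-3p under it on both. The 4 stromal and endothelial miRNAs lay between -0.34 and 0.25. The 3 erythroid miRNAs lay between -0.77 and -0.10. None of these 11 measured probes was 2-fold different, and their lists had medians of 0.19, -0.10 and -0.27. Without scaling, which put the median of all shared probes at 0.18, these medians were 0.42, 0.13 and -0.04. With local background subtracted they were 0.01, 0.04 and 0.38, with 3 probes of each list left. Of the 3 stromal probes 1 was then at 1.90 and another at -1.49. The log2 SD of repeated control spots was 1.34 under that subtraction, so these values are imprecise.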

How the data were processed

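Per the labels, total RNA was extracted with a Qiagen kit and labelled with Hy5 by an Exiqon kit. The deposited files hold the median spot intensity and the median local background intensity at 635 nm for 3200 spots per array. Per the file headers, scans were taken at 3 gains, related by least-squares lines. Background subtraction or scaling is not recorded. For the scanner software and the miRBase release, the step is not given in the sources used here.

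Net intensity, floor and scaling were computed in Python 3.11.15 with pandas 2.3.3 and NumPy 2.4.6 as given above. A blank spot marked NG on the SPF array was left out. Where a probe passed the floor on 1 array, the other value was replaced by its floor, which makes the log2 value a bound. Groups came from sample titles. The files carry no coordinates, so positions and sequences are RefSeq's on GRCm38.p6, with 1618 of 1900 probes matched by name. The procedure was run on simulated arrays with known changes. Their background spread was that of the blank spots, with an SD of 5.33 on the SPF array and 4.53 on the germ-free array. The spots without a probe had larger SDs, 13.0 on the SPF array and 11.1 on the germ-free array. The simulation therefore cannot show how the procedure does for dim arms. Members and lists were chosen with earlier results of these data known. Arms, seed matches, the 3 nearest probes and the extremes of marker lists are named. The number of arrays, 1 per group, limits the precision.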

Additional observations from a re-analysis of the deposited data

How the results depend on the processing

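No paired analysis was possible because each group has 1 array. For the same reason no replicate could be left out. miR-182-5p stayed at least 2-fold higher under 8 of 10 alternatives, and control-probe scaling and block medians were chosen after seeing the data. Most of the 10 keep the same blank subtraction and change only the scaling, floor, pseudocount or block correction. Of those that change the background, only the no-probe spots left miR-182-5p at least 2-fold higher. Without scaling the log2 values were 1.54 for miR-182-5p, 0.81 for miR-96-5p, -0.18 for miR-183-3p, -1.06 or lower for miR-182-3p and 0.55 or more for miR-183-5p, with 39 probes at least 2-fold higher and 9 lower. Without background subtraction they were 0.65, 0.21, -0.27, -0.11 or lower and 0.043 or more in the same order, with 6 higher and 3 lower. With local background miR-182-5p reversed to -0.34 and miR-183-3p was at -0.077, with 97 higher and 51 lower. The weak arms had no value there or with the no-probe spots as background or as floor. With the spots without a probe as background, miR-182-5p was at 1.53, miR-96-5p at 0.77, and 11 probes were at least 2-fold lower. With the pseudocount miR-182-3p was at -0.79 or lower, with 15 higher and 10 lower. Without a floor miR-182-3p was at -1.50 and miR-183-5p at 0.99, with 66 higher and 86 lower. Block medians put miR-96-5p at 0.82 and miR-183-3p at -0.17. Fewer probes were at least 2-fold lower with a doubled floor (11) and the floor of the no-probe spots (6), and more with control-probe scaling (32). At 1.5-fold 68 were higher and 112 lower, and at 3-fold 4 and 3. The cause of these changes was not tested. The low signal over background limits the 3 dimmest arms.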
